A study of Mus musculus with 96 samples.

Results

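Voltage-gated sodium channels open during the rising phase of the action potential. Each channel consists of a pore-forming α subunit and auxiliary β subunits, which anchor the channel and tune its gating. In the brain, Scn3a and Scn2a are known as α subunits of early development, whereas Scn1a and Scn8a take over during maturation and support rapid, repetitive firing. The genes described here are 5 α subunits (Scn1a, Scn2a, Scn3a, Scn8a, Scn9a) and 3 β subunits (Scn2b, Scn3b, Scn4b). They were chosen by gene symbol, were found by Ensembl identifier in a table of 38887 genes, and were each detected in at least 1 neuron.

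Expression was measured by Patch-seq, in which a neuron is recorded, its cytoplasm is aspirated into the patch pipette and its polyA RNA is sequenced. The neurons came from the lateral superior olive (LSO), a sound localization centre of the auditory brainstem, in acute slices of C57BL/6J mice of both sexes at postnatal day 11 ± 1, around hearing onset. Groups followed the firing pattern given with each neuron: 41 pLSO_Onset neurons, which fire at the beginning of a current step, 11 pLSO_Sustained neurons, which fire throughout, and 28 LOC_Delayed neurons, which fire after a delay. The first 2 groups are principal neurons with ascending axons (pLSOs, n = 52), and the third are lateral olivocochlear neurons that project to the cochlea (LOCs). The 8 negative controls were pipettes that only touched the slice. Neither a genotype nor a drug separated the groups. Of 86 labelled neurons and 10 controls, 6 neurons and 2 controls were left out because an earlier look at these data found that their labels, or their values, did not match the expression means published for the study's clusters. That choice was made with values in view, and flagged values of these libraries are given at the end. No animal is named, so a group is treated as 1 sample: values over neurons are described without p-values, and intervals on shares (exact Clopper-Pearson 95% confidence intervals, CI) cover counting error only. Where a count is 0, the limit given is 3 counts of the total, which lies somewhat below the upper end of such an interval.

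Markers of both classes were set beside the labels. The study chose part of these markers on these same libraries, and libraries that did not match were already left out. The shares below are therefore no independent check of the labels. Spp1, the gene for osteopontin, was detected in 50 of 52 pLSOs and in 1 of 28 LOCs. Calca, which encodes the peptide CGRP, was detected in 26 of 28 LOCs and in 15 of 52 pLSOs, and Ucn, which encodes urocortin, in 23 of 28 LOCs and in 0 of 52 pLSOs. The controls were not free of them, with Spp1 in 4, Calca in 5 and Ucn in 2 of 8. Other pLSO markers were less exclusive: Lpgat1 was detected in 96.2% of pLSOs and 46.4% of LOCs, and Maf in 86.5% and 28.6%. Slc17a6 was detected in 69.2% and 25.0%, and Kcnh7 in 76.9% and 3.57%. Of the LOC markers, Isl1 was detected in 78.6% of LOCs and Chat in 17.9%, and both in 0 pLSOs. The libraries held 1175 to 6276 detected genes (median 2560.5 in pLSOs and 2394 in LOCs), against 285 to 1271 (median 821) in the controls. Detected means a deposited value of at least 1 TPM, a unit that scales reads to gene length and to the total of the library.

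The α members are similar in sequence, which bears on the counts because the reads were 88 bases long. Of all coding windows of that length in Gencode vM21 transcripts, 6.43% in Scn3a, 4.38% in Scn9a, 3.71% in Scn2a and 2.39% in Scn1a occurred unchanged in another member. Scn3a and Scn9a shared the most windows (227), followed by Scn2a and Scn3a (156). Scn8a and the 3 β members shared none. Reads from the shared windows cannot be told apart, and their part in the values of the 4 neighbouring genes was not tested.

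The genes lie in 3 places in the genome (GRCm38). Scn3a (65457118 to 65567627, minus strand), Scn2a (65620771 to 65767447, plus), Scn1a (66270778 to 66440840, minus) and Scn9a (66480080 to 66634962, minus) lie in this order on chromosome 2, where Scn7a, a related gene outside the set, follows 38.5 kb further on. Scn8a lies on chromosome 15 (100869858 to 101045938, plus). The β genes Scn3b (40269217 to 40291618), Scn2b (45117782 to 45130070) and Scn4b (45138395 to 45154152) lie on the plus strand of chromosome 9, where 8.32 kb separate Scn2b from Scn4b. Non-coding genes of unknown function overlap 5 members; Gm13630, Gm13595, Gm10684 and Gm47266, for example, run antisense to Scn1a, Scn3a, Scn2b and Scn3b. No strand-specific counting is described, so reads from overlapping genes cannot be told apart.

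The deposited values carry an uneven detection limit. In blocks of rows up to row 530, the 80 neurons held 2436 low values (up to 12 reads). All were whole multiples of a read, within the rounding of 0.5 TPM, under a divisor set by the row's position. This divisor was not the length of the row's gene. The worth of a read in each library was itself fitted to these values, so the match is partly an outcome of the fit. Scn8a, in row 4045, had an estimated divisor of 40, although its exons cover 15766 bases. Scn2a, in row 21546, had an estimated divisor of 2114 at an exon length of 12732 bases. In rows up to 700 the divisors from the values had medians of 1.01 to 4.16, where the sorted lengths of all genes less 80 bases are negative. In the 6 later windows of rows checked they were near those lengths, from 14.0 against 14 to 41.1 against 43, with the widest gap at 31.5 against 34. Rows beyond 4500 were not checked in this way, and all members except Scn8a lie there, so their numbers of reads and rescaled levels are extrapolated. By these estimates, less than 1 read was enough for Scn8a to be listed in 71 of 80 neurons, so that every counted read was listed there. Scn2a needed about 20.4 reads in the median neuron (range 4.57 to 121).

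**Figure D1:**
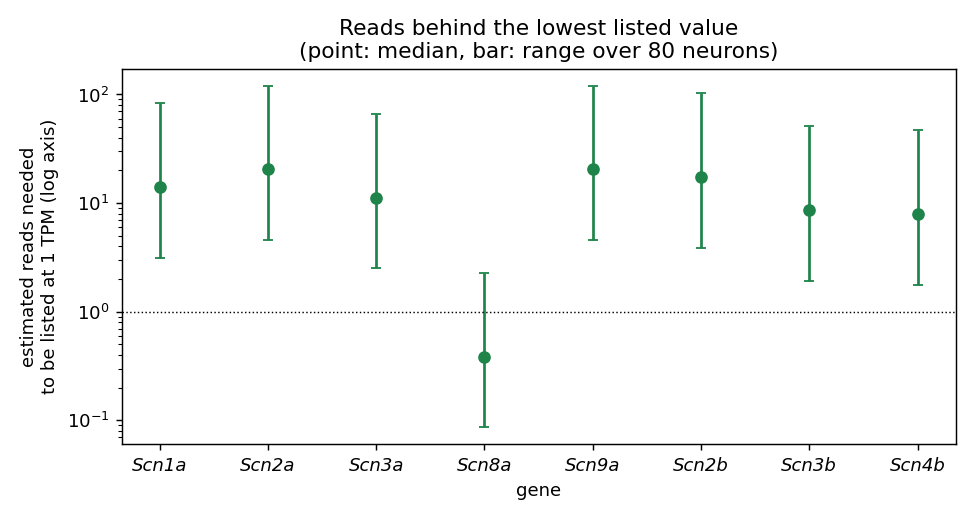
Estimated number of reads a gene needed before the table listed it at 1 TPM (log axis), as median (point) and range (bar) over 80 neurons; the dotted line marks 1 read. Scn8a lies below 1 read in the median neuron (0.386), whereas the medians of the other 7 members lie between 7.90 reads (Scn4b) and 20.4 reads (Scn2a).

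These estimates set what a 0 can mean. For Scn8a a 0 means that no read was counted in those 71 neurons, whereas for the other members it leaves room for several reads. Detection shares of different members are therefore not compared with each other below. Comparisons between pLSOs and LOCs keep the same divisor, but a read was worth less in pLSOs (median 41.15 units before division) than in LOCs (61.7), so that LOCs needed fewer reads for the same listing. Shares are thus also given at a fixed 150 estimated reads, a number above the listing limit of every member in every neuron.

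Scn3a differed most between the classes. This α subunit, typical of embryonic and neonatal neurons, ranged from 0 to 37 TPM in pLSOs (median 0) and from 0 to 62 TPM in LOCs (median 10.5). It was detected in 23 of 28 LOCs (82.1%, CI 63.1% to 93.9%) and in 13 of 52 pLSOs (25.0%, CI 14.0% to 38.9%). The intervals do not overlap, although the ranges of single neurons do: 5 LOCs had no listed value, and 2 pLSOs exceeded 10 TPM (37 and 24 TPM). The mean was 14.4 ± 15.8 TPM (SD) in LOCs and 1.62 ± 6.08 TPM in pLSOs, an 8.89-fold difference that was smaller than the SD in LOCs. Without the highest neuron of each class the difference was 13.7-fold. At 150 reads, 57.1% of LOCs and 5.77% of pLSOs remained. All 8 controls were at 0.

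Scn2a showed the same direction. It encodes an α subunit that occupies young axons before Scn8a, and ranged from 0 to 65 TPM in LOCs (median 2.5) and from 0 to 15 TPM in pLSOs (median 0). It was detected in 18 of 28 LOCs (64.3%, CI 44.1% to 81.4%) and in 14 of 52 pLSOs (26.9%, CI 15.6% to 41.02%), with 1 TPM in 1 of 8 controls. The mean of 7.18 ± 13.4 TPM in LOCs was 5.57-fold above that in pLSOs (1.29 ± 3.15 TPM), a difference again below the SD in LOCs. At 150 reads the shares were 42.9% of LOCs and 9.62% of pLSOs.

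Scn9a, best known from pain-sensing and sympathetic neurons of the periphery, was sparse but again more frequent in LOCs. In 20 LOCs it was at 0, and the other 8 reached 1, 3, 5, 5, 5, 8, 11 and 22 TPM. In pLSOs only 2 Onset neurons had a listed value, and both were at 2 TPM. The shares were 28.6% of LOCs (interval 13.2% to 48.7%) and 3.85% of pLSOs (interval 0.469% to 13.2%), and their intervals meet at 13.2%. No ratio of means is given because 3 or fewer pLSOs held the gene. At 150 reads, 5 of 28 LOCs and 0 of 52 pLSOs held it.

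Scn1a was listed in most neurons of both classes. It is the member associated with sustained fast firing, and its values ranged from 0 to 71 TPM in Onset neurons (median 11), from 1 to 47 TPM in Sustained neurons (median 8) and from 0 to 102 TPM in LOCs (median 4.5). It was listed in 47 of 52 pLSOs (90.4%, CI 79.0% to 96.8%) and in 21 of 28 LOCs (75.0%, CI 55.1% to 89.3%). All 11 Sustained neurons had it. In the controls, 6 libraries were at 0 and the others at 1 and 2 TPM. The mean in pLSOs was 18.1 ± 19.8 TPM, and that in LOCs 11.6 ± 21.7 TPM, a 1.56-fold difference that is smaller than the SD in either class. The highest LOCs had 59 and 102 TPM, and the difference was 2.06-fold without the highest neuron of each class. At 150 reads, 65.4% of pLSOs and 42.9% of LOCs held Scn1a, with overlapping intervals (50.9% to 78.0% and 24.5% to 62.8%).

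Scn8a, the main α subunit of mature axon initial segments and nodes of Ranvier, differed in level, while its detection shares were close. It ranged from 0 to 725 TPM in Onset neurons (median 1), from 0 to 475 TPM in Sustained neurons (median 1) and from 0 to 221 TPM in LOCs (median 0). It was listed in 51.9% of pLSOs (27 of 52, CI 37.6% to 66.0%) and 46.4% of LOCs (13 of 28, CI 27.5% to 66.1%). Among neurons with a listed value, the median was 97 TPM in pLSOs, or 86.7 estimated reads, and 5 TPM in LOCs, or 6.17 reads. The mean in pLSOs was 70.3 ± 142 TPM, and that in LOCs 12.4 ± 41.96 TPM, a 5.67-fold difference that was larger than the SD in LOCs and smaller than that in pLSOs.

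The Scn8a difference depended on few libraries. A LOC at 221 TPM held most of the LOC mean, and the next highest LOC had 38 TPM. Without the highest neuron of each class the difference rose to 12.3-fold. At 150 reads, 10 of 52 pLSOs (19.2%) and 0 of 28 LOCs held Scn8a, a count of 0 that allows a share of up to 10.7%, within the interval of pLSOs (9.63% to 32.5%). In the controls, 7 libraries were at 0 and 1 was at 450 TPM, which stood for 47.0 estimated reads; the mean of the controls (56.3 TPM) thus rests on that library.

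**Figure D2:**
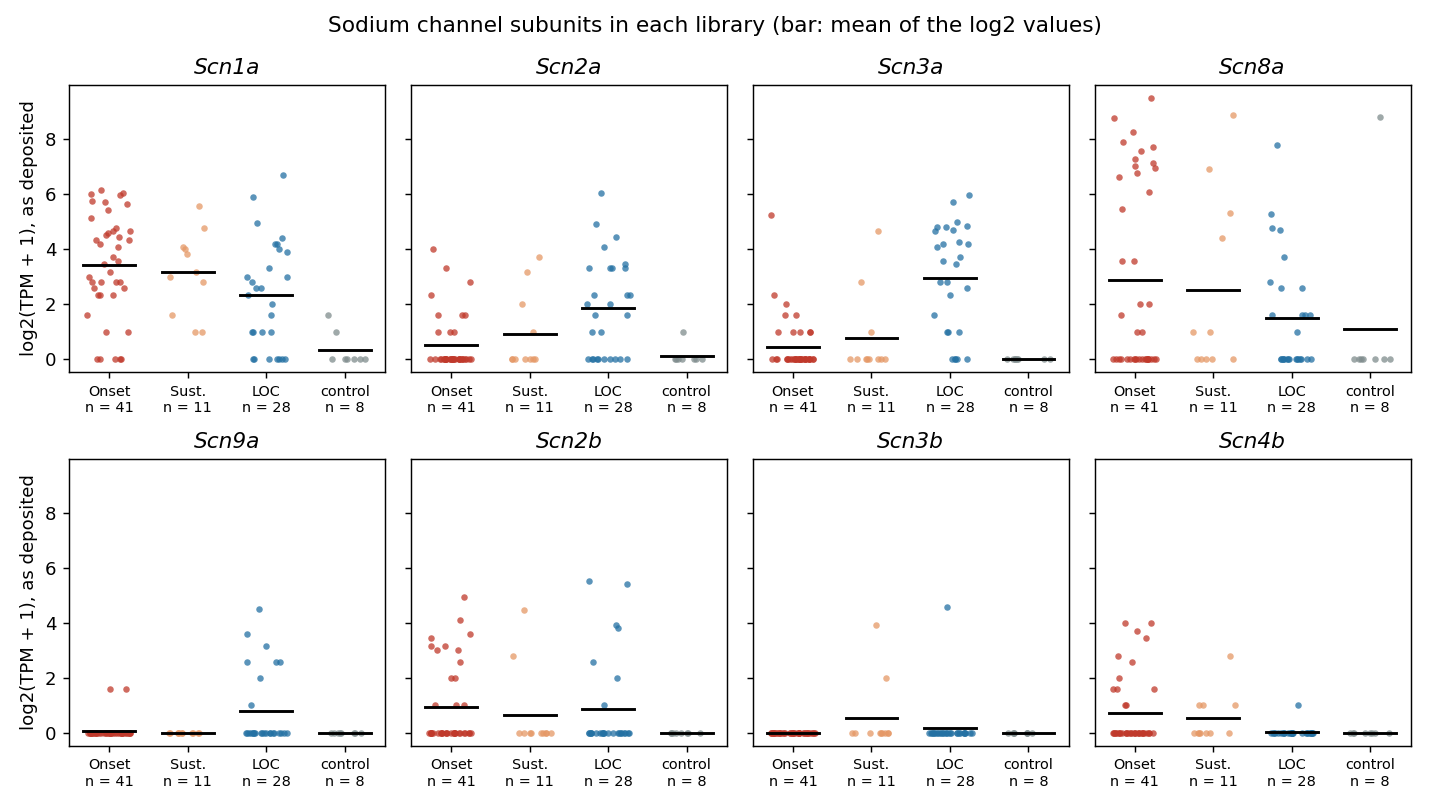
Deposited value of each member in every library as log2(TPM + 1), by group (41 Onset, 11 Sustained, 28 LOC, 8 control); points are libraries and black bars are means of the log2 values. Scn3a and Scn2a are mostly at 0 in Onset and Sustained neurons and spread upwards in LOCs, whereas Scn4b is above 1 TPM in no LOC.

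At least 1 of the 3 β subunits was listed in 27 of 52 pLSOs (51.9%, CI 37.6% to 66.0%), in 9 of 28 LOCs (32.1%, CI 15.9% to 52.4%) and in 0 of 8 controls, and the first 2 intervals overlap. Of the 3, Scn4b alone had shares with separate intervals in the 2 classes.

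Scn4b encodes the β subunit whose intracellular tail can block open channels, which is a proposed source of the resurgent sodium current of fast-firing neurons. The coding stretch of this tail is shown because it is what distinguishes Scn4b from the other β members; capitals mark the codons of the blocking peptide. It lies at chr9:45149343-45150417 (plus strand, exons 4 and 5 of 5, intron included) on GRCm38 and was read from a Gencode vM21 transcript, 5′ to 3′ along the coding strand.
Scn4b: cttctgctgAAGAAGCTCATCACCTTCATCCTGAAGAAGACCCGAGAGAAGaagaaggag
Scn4b was detected in 16 of 52 pLSOs (30.8%, CI 18.7% to 45.1%) and in 1 of 28 LOCs (3.57%, CI 0.0904% to 18.3%). In Onset neurons it ranged from 0 to 15 TPM (12 of 41 listed), in Sustained neurons from 0 to 6 TPM (4 of 11 listed), and the LOC that held it had 1 TPM. The intervals of the classes do not overlap, but values were low: the mean in pLSOs was 1.60 ± 3.66 TPM, and 4 of the 16 pLSOs that held it reached 10 TPM. At 150 reads, 6 of 52 pLSOs (11.5%, CI 4.35% to 23.4%) and 0 of 28 LOCs held it, where a count of 0 allows up to 10.7%.

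Scn2b, which is linked to the α subunit by a disulfide bond, was found in both classes at similar frequency. It ranged from 0 to 30 TPM in pLSOs and from 0 to 45 TPM in LOCs, with a median of 0 in both. The shares were 30.8% of pLSOs (16 of 52) and 25.0% of LOCs (7 of 28, CI 10.7% to 44.9%). Its mean was 1.66-fold higher in LOCs (4.39 ± 11.6 against 2.65 ± 5.87 TPM), less than the SD, and 2 LOCs with 42 and 45 TPM carried it. The direction was not stable: with geometric means Scn2b was 1.007-fold higher in pLSOs, and in neurons with at least 2000 detected genes it was 2.16-fold higher in LOCs. Scn2b moved with depth: its rank correlation with the number of detected genes was 0.51 over 28 LOCs and 0.39 over 41 Onset neurons, and the part of depth in its values was not tested.

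Scn3b, which associates with the α subunit without such a bond, was rarely listed. It reached 3 and 14 TPM in 2 Sustained neurons and 23 TPM in 1 LOC. All 41 Onset neurons were at 0, which allows a share of up to 7.32% at this listing limit.

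**Figure D3:**
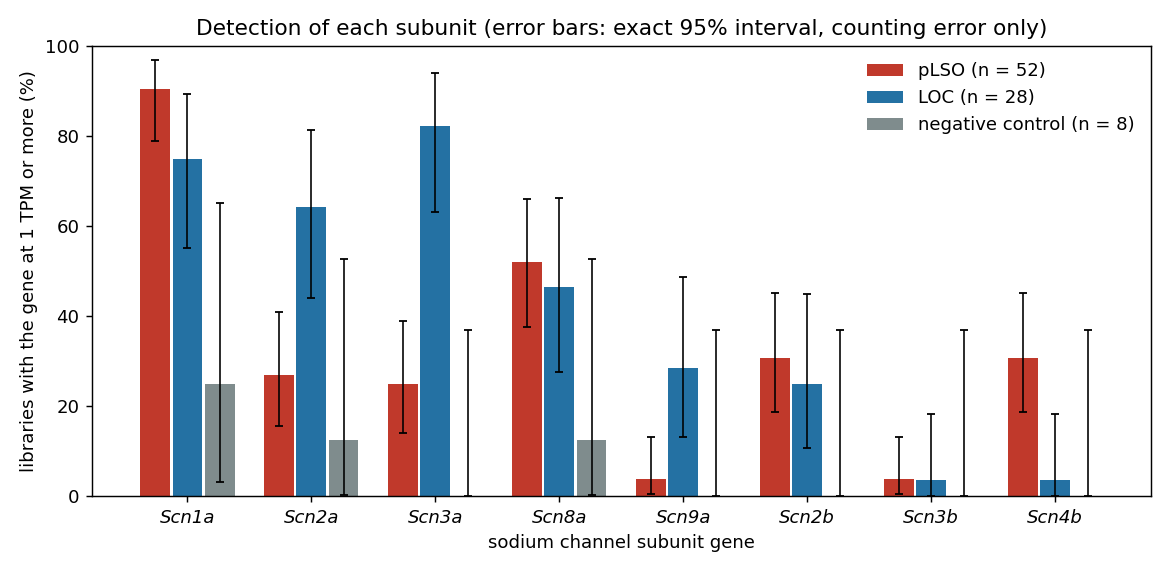
Share of libraries (%) with each member at 1 TPM or more in pLSOs (n = 52), LOCs (n = 28) and negative controls (n = 8), with exact 95% intervals as error bars. The intervals of pLSOs and LOCs are separate for Scn2a, Scn3a and Scn4b, meet at 13.2% for Scn9a and overlap for the other members.

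Counted over the set, 5 of 8 members had enough neurons in both classes for a ratio of means. Of these, 1 was at least 2-fold higher in pLSOs (Scn8a), where 17.1% of 5765 genes were, and 2 were at least 2-fold higher in LOCs (Scn2a, Scn3a), where 21.1% of genes were. A fold of 2 was thus common in these data. A difference of at least 25 percentage points in the share of neurons was rarer: it was met towards pLSOs by 1 of 8 members (Scn4b) and by 3.06% of 10319 genes, and towards LOCs by 2 of 8 members (Scn2a, Scn3a) and by 1.8% of genes. Scn9a fell just short with 24.7 points. It passed with all labelled libraries (33.3% of LOCs against 5.36% of pLSOs) and in neurons with at least 2000 detected genes (36.4% against 4.55%), where 3 members were counted towards LOCs. The median difference of the 8 members was 2.88 points towards pLSOs, close to that of all genes (2.20 points). With detection at 2 TPM, 0 members passed 25 points towards pLSOs.

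Along chromosome 2, the direction did not follow gene order. The shares were higher in LOCs by 57.1 points for Scn3a, 37.4 points for Scn2a, 24.7 points for Scn9a and 20.9 points for Scn7a, whereas Scn1a, which lies between Scn2a and Scn9a, was 15.4 points higher in pLSOs. Of the 3 other coding genes between Scn2a and Scn1a, Galnt3 and Ttc21b were higher in pLSOs, by 9.62 and 15.9 points. Csrnp3 was 3.85 points higher in LOCs. Galnt3 was detected in 9.62% of pLSOs and 0 LOCs, Ttc21b in 23.1% and 7.14%, and Csrnp3 in 46.2% and 50.0%. These 3 genes were picked for their position after the members' values had been seen.

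Scn2a, Scn3a and Scn9a were grouped after their values had been seen, so their joint count is a description. At least 1 of them was listed in 26 of 28 LOCs (92.9%, CI 76.5% to 99.1%) and in 23 of 52 pLSOs (44.2%, CI 30.5% to 58.7%). Scn2a and Scn3a were both listed in 16 of 28 LOCs, where the product of their single shares gives 14.8, and in 5 of 52 pLSOs, where it gives 3.50. The pairing in either class was thus close to what the single shares give. The number of members per neuron was 4 in the median LOC (range 0 to 6) and 3 in the median pLSO (range 0 to 6), with 0 in the median control (range 0 to 2). With values rescaled to the exon length of each gene, the median was 3 in both classes.

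Scn1a and Scn8a were both listed in 26 of 52 pLSOs, where the product of their single shares gives 24.4, Scn1a without Scn8a in 21, Scn8a without Scn1a in 1 and neither in 4. In LOCs, 11 of 28 held both, where the product gives 9.75, 10 held only Scn1a of the 2, 2 held only Scn8a and 5 held neither. The β subunits Scn2b and Scn4b were listed together in 7 of 52 pLSOs, where the product gives 4.92, and in 0 of 28 LOCs.

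**Figure D4:**
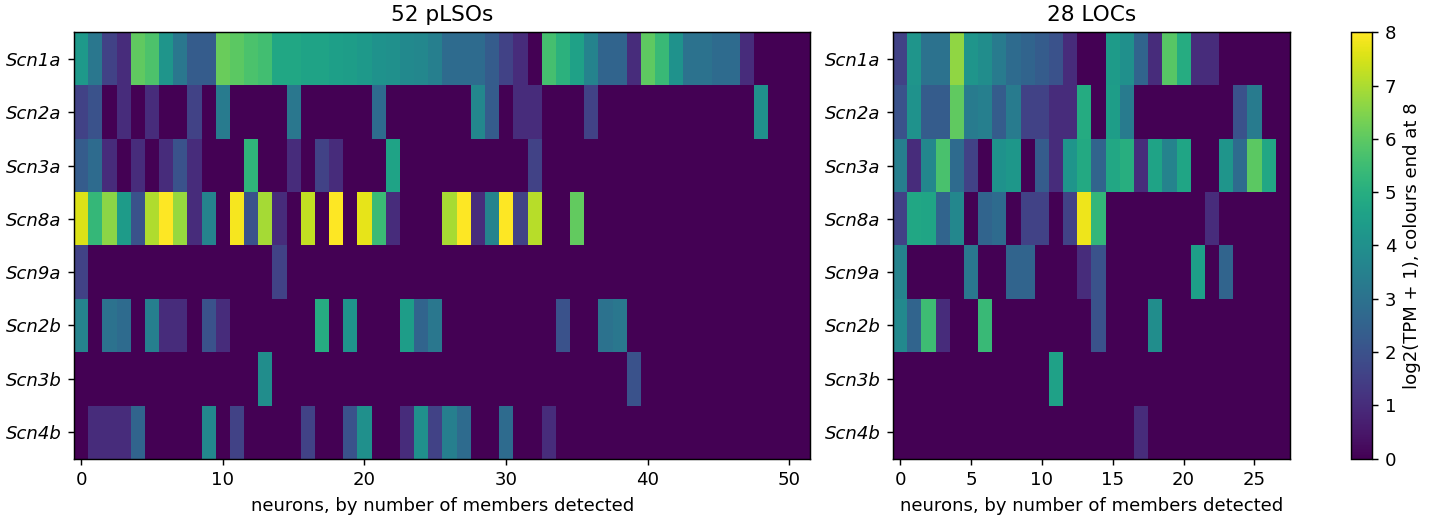
Deposited values of the 8 members as log2(TPM + 1) in each of 52 pLSOs and 28 LOCs, with neurons ordered from the most to the fewest members detected (6 to 0); the colour scale ends at 8. Scn1a spans 47 of 52 pLSOs, and in LOCs Scn3a is listed in 23 and Scn1a in 21 of 28.

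Levels of different members were compared only after rescaling each value to the exon length of its own gene and to a common library total, the same as that of TPM. On this scale the mean level in pLSOs was 203 for Scn1a, 98.4 for Scn2b, 19.9 for Scn4b, 17.4 for Scn2a, 14.2 for Scn3a, 13.9 for Scn8a, 4.46 for Scn3b and 1.20 for Scn9a. The deposited TPM give another order, with Scn8a (70.3) above Scn1a (18.1). Each gap between neighbours in the rescaled order was smaller than the larger SD across neurons of the pair (231 for Scn1a and 221 for Scn2b). The gap between Scn2b and Scn4b was larger than the SD of Scn4b (45.2). The order of means is a description only. In LOCs the rescaled means were 152 for Scn2b, 109 for Scn1a, 95.4 for Scn3a, 80.5 for Scn2a, 24.4 for Scn9a, 10.2 for Scn3b, 1.99 for Scn8a and 0.343 for Scn4b. The lead of Scn2b rested on few neurons, since without its highest neuron its mean was 94.2.

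Within a neuron, where both genes share the library, the rescaled Scn1a level exceeded that of Scn8a in 45 of 52 pLSOs and was below it in 3. Scn1a exceeded Scn3a in 46 of 52 pLSOs and fell below it in 2. In LOCs the latter pair was balanced, with Scn1a higher in 13 neurons and Scn3a higher in 14 of 28. Scn1a was the highest of the 5 α members in 40 of 52 pLSOs (76.9%) and in 9 of 28 LOCs (32.1%). Scn3a was the highest in 11 of 28 LOCs (39.3%) and in 1 of 52 pLSOs, and Scn9a was the highest in 4 LOCs and 0 pLSOs. With the values as deposited, Scn1a led in 25 pLSOs and Scn8a in 21, so the rank of Scn8a depended on the scale.

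**Figure D5:**
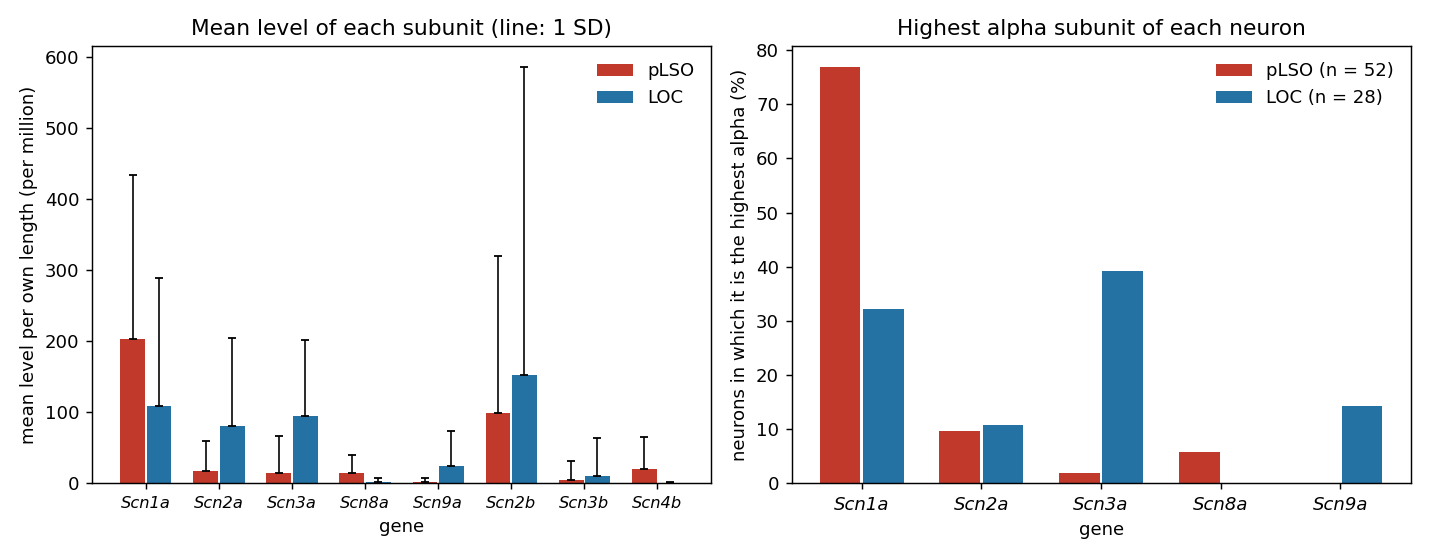
Left, mean level of each member in pLSOs and LOCs after rescaling to the length of its own gene (in the unit of TPM), with lines that reach 1 SD above the mean. Right, share of neurons (%) in which each α member had the highest rescaled level; Scn1a led in 76.9% of pLSOs, and Scn3a (39.3%) and Scn1a (32.1%) led in LOCs.

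Onset and Sustained pLSOs were compared to ask whether the 2 firing patterns of principal neurons differ in these genes. Of 4 members with a ratio, Scn4b was 2.21-fold higher in Onset neurons (1.80 ± 4.01 against 0.818 ± 1.78 TPM), where 13.8% of 3532 genes were at least 2-fold higher. Scn2a was 2.08-fold higher in Sustained neurons (2.18 ± 4.07 against 1.05 ± 2.86 TPM), where 22% of genes were. Both differences were smaller than the SD, and neither call held in every setting: with geometric means 0 members were 2-fold higher in Onset neurons, and without the highest neuron of each class 0 were in Sustained neurons. Scn1a (1.51-fold) and Scn8a (1.23-fold) were higher in Onset neurons by less than 2-fold. Without the highest neuron of each class, Scn8a was 3.14-fold and Scn4b 4.92-fold higher in Onset neurons. This rested largely on the highest of the 11 Sustained neurons, without which their means fell from 59.6 to 18.1 TPM (Scn8a) and from 0.818 to 0.3 TPM (Scn4b). Detection ran the other way, with Scn8a in 51.2% of Onset and 54.5% of Sustained neurons and Scn4b in 29.3% and 36.4%. In detection shares, 0 of 8 members differed by 25 points in either direction, against 1.62% of 10012 genes towards Onset and 6.75% towards Sustained neurons. The largest gap was 18.2 points for Scn3b (0 of 41 Onset and 2 of 11 Sustained neurons).

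Set against LOCs separately, both firing patterns gave the same directions for Scn8a, Scn2a, Scn3a and Scn4b, although these comparisons share the LOC neurons. In Onset neurons, Scn8a was 5.91-fold higher than in LOCs (17.5% of 5487 genes passed 2-fold in this direction), and Scn2a and Scn3a were 6.84-fold and 11.1-fold lower (20.9%). At 25 points or more were Scn4b towards Onset neurons (3.15% of 9619 genes) and Scn2a and Scn3a towards LOCs (2.39%). In Sustained neurons, Scn8a was 4.81-fold higher (24.9% of 3318 genes) and Scn2a 3.29-fold lower (16.8%), and the other members but Scn1a (1.11-fold) had too few neurons for a ratio. At 25 points or more were Scn1a, which met the limit exactly (11 of 11 against 75.0%), and Scn4b towards Sustained neurons (9.16% of 10813 genes) and Scn2a, Scn3a and Scn9a towards LOCs (2.28%).

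The neurons' recordings allowed the members to be set beside the action potential. The median halfwidth was 0.36 ms in Onset neurons (range 0.21 to 0.76 ms), 0.43 ms in Sustained neurons (range 0.21 to 0.87 ms) and 1.12 ms in LOCs (range 0.48 to 3.37 ms). The median threshold was -39.2 mV in Onset neurons, -41.7 mV in Sustained neurons and -27.3 mV in LOCs. Because these features differ with the classes, they were related to the members only within Onset neurons and within LOCs. Over 60 relations (halfwidth, threshold, amplitude and rheobase with each variable member), Spearman's rho ranged from -0.30 to 0.21 in 41 Onset neurons and from -0.56 to 0.38 in 28 LOCs.

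Of these, 2 reached a size of 0.4, both in LOCs. Scn8a went with a narrower spike (rho = -0.56, Pearson's r = -0.40, and -0.46 without the 2 neurons farthest from the median halfwidth), and 13 of 28 LOCs held it. Scn1a went with a lower amplitude (rho = -0.51, r = -0.47, and -0.40 without the 2 farthest). Scn8a also rose with the number of detected genes in LOCs (rho = 0.38), and the part of depth in its relation was not tested. Neurons of unnamed animals are not independent, so these values describe the libraries only.

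The genes whose values ran most alike with a member were sought over the neurons of a class among genes detected in at least 25% of them (3997 others in pLSOs, 3879 in LOCs). For Scn1a in pLSOs these were Spp1 (Spearman's rho = 0.55) and Trappc2l (0.47). For Scn2a in pLSOs they were Acsl3 (0.53) and Cct3 (0.48), for Scn3a Ddx6 (0.62) and Ablim1 (0.49), and for Scn2b 6330403K07Rik (0.55) and Mcts1 (0.55). For Scn4b in pLSOs they were Atl2 (0.54) and Csnk1a1 (0.52), and for Scn8a in pLSOs Tpp2 (0.60) and Mfap1b (0.54). For Scn3a in LOCs they were Myef2 (0.72) and Cadps (0.69), and for Scn2a in LOCs Glra1 (0.62), a glycine receptor subunit, and Ralgapb (0.61). For Scn9a in LOCs they were Vma21 (0.69) and Spred1 (0.61), for Scn1a Ap1m1 (0.65) and Srsf1 (0.65), for Scn8a Caln1 (0.71) and Eif3c (0.67), and for Scn2b Umad1 (0.76) and Cx3cl1 (0.74). Each named gene was picked for its high rank among 3997 or 3879 correlations. A high rho is thus partly an outcome of this choice, and its chance level was not tested. In LOCs, rho with the number of detected genes was 0.51 for Scn2b, 0.54 for Umad1 and 0.57 for Cx3cl1. It was 0.38 for Scn8a, 0.52 for Caln1 and 0.43 for Eif3c, but -0.11 for Scn3a, -0.30 for Myef2 and -0.02 for Cadps. In pLSOs, this rho was 0.33 for Scn3a, 0.33 for Ddx6 and 0.45 for Ablim1. Scn8a had 0.33 and Tpp2 0.32, and Scn2b had 0.28 and 6330403K07Rik 0.46, but Scn1a had -0.20 and Spp1 -0.06. The part of depth in these relations was not tested. The members themselves were not among the closest genes. Over all lists the closest other member ranked between 42 (Scn2a to Scn1a in LOCs, 0.41) and 1940 (Scn8a to Scn9a in LOCs, 0.01). The closest member to Scn3a in LOCs was Scn2a (0.25), at rank 390, and the closest to Scn1a in pLSOs was Scn3a (0.14), at rank 538.

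Of the sodium channel genes outside the set, Scn10a and Scn11a, channels of sensory neurons, were at 0 in all 80 neurons. Scn4a, the muscle channel, was listed in 1 Onset neuron. Scn7a, an atypical channel that senses sodium, was detected in 8 of 28 LOCs (0 to 224 TPM) and in 4 of 52 pLSOs (0 to 9 TPM), and its mean of 12.5 TPM in LOCs fell to 4.70 TPM without the highest neuron.

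Partner genes encode proteins that hold sodium channels at the axon initial segment or bind them inside the cell. Of 14, 9 had a ratio, of which 1 was at least 2-fold higher in pLSOs (17.1% of all genes) and 1 in LOCs (21.1%). Cntn1, a cell adhesion molecule that binds β subunits, was 3.45-fold higher in pLSOs (8.13 ± 12.7 against 2.36 ± 5.04 TPM), and a control reached 133 TPM. Fgf14, an intracellular partner of the α subunit, was 2.44-fold higher in LOCs (21.1 ± 68.6 against 8.63 ± 31.7 TPM). The Cntn1 difference was larger than the SD in LOCs and smaller than that in pLSOs, and the Fgf14 difference was smaller than both. Without the LOC at 305 TPM, the LOC mean of Fgf14 was 10.6 TPM, within 2-fold of the pLSO mean; the pLSO mean was 4.76 TPM without its own highest neuron (206 TPM). Ank3, which encodes ankyrin G, the anchor of the initial segment, was detected in 89.3% of LOCs and 76.9% of pLSOs. Nfasc, the gene for neurofascin, was 27.5 points more frequent in pLSOs (59.6% against 32.1%) and was the 1 partner past 25 points (3.06% of all genes). Nrcam, a related adhesion molecule, averaged 136 ± 237 TPM across pLSOs against 72.1 ± 128 TPM across LOCs. Fgf12, a relative of Fgf14, was detected in 61.5% of pLSOs and 53.6% of LOCs, and Sptan1, the gene for αII spectrin, in 75.0% and 67.9%. Nedd4l, a ubiquitin ligase, was detected in 38.5% and 21.4%, with up to 5891 TPM in a control. Sptbn4, the gene for βIV spectrin, was detected in 14 of 52 pLSOs and in 1 LOC, whose value of 1610 TPM alone made up the LOC mean. Between firing patterns, S100a10 was 3.73-fold higher in Sustained neurons and detected in 54.5% of them against 21.95% of Onset neurons. Cntn1 was 6.04-fold higher in Onset neurons. These were the 2 of 9 partners with a ratio that passed 2-fold, against 22% and 13.8% of all genes in these directions. Nfasc was also more frequent in Sustained neurons, by 28.2 points (81.8% against 53.7%), and with S100a10 made 2 of 14 partners past 25 points, against 6.75% of all genes.

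Markers of other cells stood beside these results as follows. The summed level of 6 oligodendrocyte markers had a median of 107.5 TPM in pLSOs (0 to 6658), 234 TPM in LOCs (1 to 5135) and 3642 TPM in the controls (389 to 7912). That of 6 astrocyte markers was 360.5 TPM in pLSOs (0 to 7521), 244 TPM in LOCs (0 to 10407) and 104.5 TPM in the controls. Of these markers, Aldh1l1 and Gja1 were at 0 in every LOC, and the other 4 were found in both classes. Aldoc was detected in 71.4% of LOCs and 75.0% of pLSOs, and Aqp4 in 32.1% and 23.1%. Slc1a3 was detected in 32.1% and 25.0%, and Gfap in 25.0% and 28.8%. The summed level of 6 microglia markers was 2 TPM in the median pLSO and 8 TPM in the median LOC. Those of 4 markers each of oligodendrocyte precursors and endothelium had a median of 0 in both classes. Within pLSOs the firing patterns were not alike. The microglia sum had a median of 1 TPM in Onset neurons (0 to 1811) and 38 TPM in Sustained neurons (0 to 1313). The astrocyte sum had medians of 305 and 917 TPM, and the oligodendrocyte sum 108 and 107 TPM. In the 8 controls, which had the highest median oligodendrocyte sum in TPM, Scn3a, Scn9a, Scn2b, Scn3b and Scn4b were all at 0. That sum is a share of a shallow library and not an amount of RNA. Of the controls left out, NC5 had 41 TPM of Scn2b and NC6 had 3 TPM of Scn4b. A control read was worth far more (median 1256 units), so that 1 read of these genes would have been listed in 5 or 6 of 8 controls. The controls were also shallow (median of 821 detected genes), and a 0 in such libraries says little about these genes. The part of RNA from other cells in the values of members and partners, also between firing patterns, was not tested.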

How the data were processed

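Patch-seq libraries of 86 LSO neurons and 10 negative controls were prepared with a modified Smart-seq2 protocol. Per the study's methods and processing notes, the authors trimmed reads with Trim Galore 0.4.2, aligned them to mm10 with STAR in 2 passes, marked duplicates with Picard 1.115 (removal is not given in the sources used here) and assigned primary alignments to Gencode genes with featureCounts. The deposited values are TPM that the authors rounded to whole numbers, treated here as a score and not as counts. Ensembl identifiers were matched to Gencode vM21 symbols (37570 of 38887).

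Computed here, with Python 3.11.15, pandas 2.3.3, NumPy 2.4.6 and SciPy 1.17.1 (figures with matplotlib 3.10.9), were means, medians, ranges and shares of neurons at 1 TPM or more, with Clopper-Pearson 95% intervals. Labels name no animal, so no test between groups was run. Ratios of means were given where at least 4 neurons of each class held a gene, and counted at 2-fold among genes with a mean of at least 1 TPM in a class; correlations used log2(TPM + 1). Named genes were the 8 members, other sodium channel genes, 14 partner genes and, per member and class, the 2 genes of highest Spearman correlation. A partner was named where its mean reached 10 TPM or its share 25% in a class. Reads were estimated from a read's worth in each library and a row's divisor, and they are not molecules. Intervals cover counting error only. The members and lists were chosen with earlier results of these data known, and so were the libraries left out. The limit of 150 reads and the order of levels as deposited were added after seeing the data. Alternatives were all labelled libraries, geometric means, means without the highest neuron of each class, Onset neurons alone, own-length values, neurons with at least 2000 detected genes, detection at 2 and 10 TPM, a pseudocount of 0.1 and no filter on low values. The ratio and count steps were tested on simulated data. Some sequences and genes are not reported here.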

Additional observations from a re-analysis of the deposited data

Results flagged for a closer look

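Among the 8 negative controls, 1 library stood apart from the others for Scn8a, with 450 TPM against 0 TPM in the other 7, which stood for about 47.0 estimated reads. For Scn2a, 1 control had 1 TPM and the other 7 had 0 TPM. With 7 of 8 values at 0, any listed value, even 1 TPM, spans the whole range of the group, so that standing apart is fixed by the zeros and has no meaningful chance rate. The values are given as they are; Scn1a was listed in 2 controls, and the other 5 members were at 0 in every control.

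Libraries left out of the comparisons held several members above the highest of the 8 controls. Scn1a was at 14 TPM in cell_54, a library labelled Sustained that had 1887 TPM of Calca and 0 TPM of Spp1, against at most 2 TPM in the controls. Scn3a was at 17 TPM in cell_85, labelled LOC, and Scn9a was at 45 TPM in cell_40, labelled Onset with 1002 detected genes; both genes were at 0 in the controls. Of the 2 controls left out, NC5 had 11 TPM of Scn2a and 41 TPM of Scn2b together with 782 TPM of Spp1, and NC6 had 3 TPM of Scn4b with 75 TPM of Spp1 and 3104 detected genes.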

How the results depend on the processing

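Each value was recomputed with 1 choice changed at a time. Of 66 recomputed summary values, 41 stayed within the limits set for them, 23 moved and 2 turned direction; of 174 values of single members, 132 stayed and 42 moved. No member past 2-fold turned direction, but Scn2b, which was not past it, did: its log2 ratio of pLSOs over LOCs went from -0.73 to 0.010 with geometric means, and its mean log2 difference from 0.0047 to -0.15 with all labelled libraries and -0.22 in neurons with at least 2000 detected genes. The 2 members at least 2-fold higher in LOCs, Scn2a and Scn3a, passed 2-fold in every setting run, with folds of 4.42 to 6.84 and 6.72 to 16.3, and Scn2b joined them (2.16-fold) in neurons with at least 2000 detected genes, a count of 3. Scn8a was 3.31-fold to 12.3-fold higher in pLSOs. The count of members 2-fold higher in pLSOs rose from 1 to 2 with geometric means, without the highest neuron of each class and in neurons with at least 2000 detected genes, because Scn1a joined with 2.30-fold, 2.06-fold and 2.31-fold. The count 2-fold higher in Onset than in Sustained neurons went from 1 to 0 with geometric means, 2 without the highest neurons and 0 in neurons with at least 2000 detected genes. The opposite count went from 1 to 2 with all 86 neurons as labelled, 0 without the highest neurons and 0 with own-length values.

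The log2 ratio of mean Scn1a over Scn8a turned with the scale. It was 3.87 in pLSOs at own length, 4.93 with geometric means and -1.96 as deposited. In LOCs it was 5.78, then 5.09 with geometric means, 6.48 without the highest neuron, 5.10 in neurons with at least 2000 detected genes and -0.090 as deposited. With detection at 10 TPM, the median number of members fell to 1 in LOCs and 1 in pLSOs, 7.14% of LOCs held both Scn2a and Scn3a instead of 57.1%, and 1 member was 25 points higher in LOCs and 0 in pLSOs. At 150 estimated reads the medians were 2 and 1, 28.6% of LOCs held both, and 0 members were 25 points higher in pLSOs. At 2 TPM that last count was also 0. Where these values moved, the cause was not tested, except that a higher limit lists fewer values by construction. No paired analysis was possible because replicate numbers only follow accession order and no result comes from a test. Without the filter on low values, 16.8% of 5946 genes were 2-fold higher in pLSOs and 21.0% in LOCs.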
